A study of Mus musculus with 2 samples.

Results

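The genes described here are 8 long non-coding RNA genes of the mouse that host small nucleolar RNAs (snoRNAs): Snhg1, Snhg3, Snhg6, Snhg8, Snhg12, Gas5, Zfas1 and Epb41l4aos. They were taken by symbol from the 32285 genes listed in each of 2 count matrices, and all 8 were found in both. The set was chosen by the levels of Snhg6 at both ages in muscle and connective tissue of these same libraries, so its values in those cells are a description and not a finding. The question was whether the other host genes and the other cell types shared that difference.

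A snoRNA host gene is transcribed and spliced like a messenger RNA, and the snoRNAs are typically cut out of its introns. The snoRNAs then guide chemical changes in ribosomal RNA, box C/D snoRNAs the methylation of riboses and box H/ACA snoRNAs the conversion of uridine to pseudouridine. The spliced host RNA is what a poly(A)-based library captures. Many host RNAs begin, like ribosomal protein mRNAs, with a run of pyrimidines (a 5′ terminal oligopyrimidine tract, TOP), and spliced RNAs of this kind, Gas5 above all, are known to be broken down by nonsense-mediated decay when they are translated. Gas5 was first isolated as a transcript that accumulates when cell growth stops.

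Both libraries were made from wild-type C57Bl/6 mouse embryos with the 10x Chromium 3′ kit, version 3.1. There was 1 library for E12.5 and 1 for E15.5 (E stands for embryonic day), and each held cells of fore- and hindlimb skeletal muscle dissociated mechanically and with trypsin. How many embryos were pooled, and of which sex, is not given in the sources used here. Cells called male and cells called female from their own UMIs were found in both libraries. With 1 library per age there was no replicate, no test between ages was possible, and age cannot be told apart from anything else that differed between the libraries. Every interval below is a 95% interval that covers counting error only.

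The libraries differed in depth. At E12.5 there were 34907675 unique molecular identifiers (UMIs, each marking a captured RNA molecule) in 12941 barcodes, against 46966083 UMIs in 5780 barcodes at E15.5. After filtering, 11001 and 3916 cells were kept, with a median of 2318 and 9285.5 UMIs, and 12 barcodes were shared by kept cells of both libraries. Cell classes were rebuilt here from marker genes. Although the tissue is labelled skeletal muscle, the muscle lineage class (clusters led by Pax7 and Msc, or by contractile genes such as Mylpf) held 598 E12.5 cells (5.44%) and 400 E15.5 cells (10.2%), and connective tissue cells were the most numerous with 7761 and 1585. Chondrocyte, endothelial, immune and Schwann classes could also be compared, while tenocyte, mural, mast and epithelial cells were named at E15.5. The share of UMIs from ribosomal protein genes was 13.2% for E12.5 against 21.4% for E15.5. Over all kept cells the median gene was at a log2 ratio of -0.32 (E15.5 over E12.5, in CPM, UMIs of a gene scaled to a fixed total), and ratios are also given relative to the median gene of the class.

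In the GENCODE vM21 annotation of build GRCm38 the 8 genes contain 29 separate snoRNA entries on their own strand. Gas5 (chr1:161034422-161038539, plus strand) holds 9, of which 1 is named Mir5117, and Snhg1 (chr19:8723475-8726443, plus strand) holds 8. Snhg12 (chr4:132308623-132311024, plus strand) holds 4, Zfas1 (chr2:167062934-167065862, plus strand) holds 3 and Snhg3 (chr4:132348014-132353686, minus strand) holds 2. Snhg6 (chr1:9941959-9944118, minus strand), Snhg8 (chr3:123507552-123508404, minus strand) and Epb41l4aos hold 1 each. Gas5 and Zfas1 overlap Zbtb37 and Znfx1, and Snhg6 overlaps Mcmdc2, each on the other strand, and Snhg3 overlaps Rcc1 on its own strand. Whether the counting used strand is not given in the sources used here, so UMIs of overlapping genes may not be fully separated.

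Annotated transcripts of 6 of the 8 genes (75%) begin with a TOP-like run, defined here as a C at the first base followed by at least 4 letters that are C or T. Of all genes in the matrices with a GENCODE transcript, 6.88% have such a transcript. Host genes have many annotated transcripts, and counted by transcript the shares were 16.4% (12 of 73) and 2.16%. For Snhg1 and Epb41l4aos no annotated transcript met this definition.

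The first 30 bases of such a transcript are shown for the other 6 genes, since a TOP is what host RNAs are known to share with ribosomal protein mRNAs. For each gene the transcript with the longest run was taken, and the run is in capitals.
Snhg6-203: CTTTCTCggcagcgccgtagagcgcgagca
Snhg12-208: CCTTTCTCgcttcatccgcggtccctgtct
Zfas1-202: CCTTTCgttccggcggctcctagagcgttt
Gas5-203: CCCCTCagcctgtactcctcagggaggcgg
Snhg3-203: CTCTCTaggcgtcgctctcttggtgtgctt
Snhg8-201: CCCTCgcgcgcaggctcttgggagagcgtc
The run had 7 letters in Snhg6 and 8 in Snhg12, and 5 or 6 in the other 4 genes.

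The snoRNAs of the host genes with the highest ratios in connective tissue show what these genes carry. Of the 29 snoRNA entries 26 overlap an annotated exon of some transcript, among them Snord99 and Snora24, but not Snord87. Snord87 lies inside Snhg6 (chr1:9942463-9942549, minus strand) and, like Snord99 inside Snhg12 (chr4:132310691-132310764, plus strand), is a box C/D snoRNA. Capitals mark a box C (NTGATGA near the 5′ end) and the last box D (CTGA). Snora24 inside Snhg8 (chr3:123507937-123508066, minus strand) is a box H/ACA snoRNA, and capitals mark the ACA close to its 3′ end.
Snord87: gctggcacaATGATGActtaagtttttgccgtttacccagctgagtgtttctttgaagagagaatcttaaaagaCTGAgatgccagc
Snord99: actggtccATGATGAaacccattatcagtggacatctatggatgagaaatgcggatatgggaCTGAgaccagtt
Snora24: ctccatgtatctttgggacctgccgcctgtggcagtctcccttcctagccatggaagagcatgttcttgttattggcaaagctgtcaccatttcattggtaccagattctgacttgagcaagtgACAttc
The first 7 bases of Snord87 are the reverse complement of its last 7, the terminal stem of a box C/D snoRNA. The values below are UMIs assigned to the host genes, not to these snoRNAs.

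The RefSeq promoter table (GRCm38.p6) covers 6 of the 8 genes with 7 windows, each from 250 bases before to 50 bases after an annotated start. The windows of Snhg12 and Snhg8 are shown, since these genes followed Snhg6 most closely in connective tissue. Capitals mark a TOP-like run beginning within 10 bases of the start and, in Snhg8, the letters TATAAA upstream of it. The GENCODE transcript Snhg8-201 shown above begins farther upstream, within this window and before TATAAA, so the annotations place the start of Snhg8 and its pyrimidine run differently.
Snhg12 promoter, chr4:132308428-132308727, plus strand: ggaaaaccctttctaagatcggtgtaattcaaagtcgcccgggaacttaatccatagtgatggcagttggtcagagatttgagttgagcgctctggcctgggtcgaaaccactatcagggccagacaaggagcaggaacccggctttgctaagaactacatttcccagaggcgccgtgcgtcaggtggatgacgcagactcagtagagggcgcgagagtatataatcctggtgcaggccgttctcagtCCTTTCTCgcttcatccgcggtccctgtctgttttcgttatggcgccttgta
Snhg8 promoter, chr3:123508287-123508586, minus strand: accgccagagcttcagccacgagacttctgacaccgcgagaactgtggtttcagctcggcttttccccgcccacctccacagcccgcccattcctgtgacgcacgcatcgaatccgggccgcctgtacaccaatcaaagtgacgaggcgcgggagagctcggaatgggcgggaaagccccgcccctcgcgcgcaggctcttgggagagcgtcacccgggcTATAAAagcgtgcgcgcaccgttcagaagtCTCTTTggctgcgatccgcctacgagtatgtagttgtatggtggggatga
A TOP-like run at that place was found on the gene's strand in 4 of the 7 windows (Gas5, Snhg3, Snhg8 and Snhg12) and in 31.2% of the 24834 promoters of genes in the matrices. TATAAA was found on either strand in 3 of the 7 (Snhg1, Snhg3 and Snhg8) and in 12.6% of all. The E-box CACGTG was found in none of the 7 and in 7.72% of all, and TGATGNAA, the core of the element bound by ATF4, in none and in 3.59%.

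In the muscle lineage class Snhg6 had the highest ratio between ages of the 8 host genes when all cells were taken. Its level was 62.5 CPM (interval 53.0 to 73.2) in the E12.5 cells, and in the E15.5 cells it was 151 CPM (142 to 161). The log2 ratio was 1.27 (1.03 to 1.53). Of the other 7 host genes none reached a 2-fold difference, and the interval of each of the 7 lay wholly below that of Snhg6. All 8 were nonetheless on the higher side at E15.5, with a median log2 ratio of 0.42 against -0.34 for the 8173 genes tested in this class (those with a mean CPM of the 2 ages of at least 10). Of all genes tested 2.94% were at least 2-fold higher at E15.5. Snhg6, by which the set was chosen, was the 1 host gene of 8 among them. At least 2-fold lower were 15.2% of all genes and none of the 8. Snhg6 lost the 2-fold difference when cells of 2000 to 8000 UMIs were compared, with a log2 ratio of 0.65 from 519 E12.5 cells and 30 E15.5 cells. In those cells Gas5 had a ratio of 0.71, the highest of the 8. No counting interval is given for this setting. With 30 E15.5 cells the order of Gas5 and Snhg6, and the difference from the Snhg6 ratio of all cells, cannot be set against counting error.

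Snhg1, the host of Snord22 and other box C/D snoRNAs, had 194 CPM in the earlier library and 296 CPM in the later one, a log2 ratio of 0.61 (0.46 to 0.76). Snhg12 had 51.9 and 74.9 CPM, with a log2 ratio of 0.53 (0.24 to 0.83). Snhg3, which hosts Snora73a and Snora73b, had 49.8 and 68.1 CPM, with a log2 ratio of 0.45 (0.16 to 0.75). These 3 differences were each larger than counting error but smaller than that of Snhg6. Snhg8 had 108 and 141 CPM (log2 ratio 0.38, 0.18 to 0.59), and Zfas1, the host of Snord12, had 122 and 148 CPM (0.29, 0.10 to 0.48). Gas5 was the most abundant host RNA at both ages with 615 and 694 CPM, and its log2 ratio was 0.17 (0.09 to 0.26). Epb41l4aos had 67.8 and 74.4 CPM, and its log2 ratio of 0.13 (-0.12 to 0.40) was within counting error. Relative to the median gene of the class the 8 log2 ratios ran from 0.48 in Epb41l4aos to 1.62 in Snhg6, and all 8 intervals lay above 0. At least 2-fold higher on this scale was 1 of the 8, again Snhg6, against 7.97% of all genes tested.

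The clusters of the muscle lineage class led by progenitor genes and by contractile genes were also compared between ages separately, a division chosen after the data were seen. In the clusters led by Pax7, the transcription factor of muscle progenitors (393 and 311 cells), the log2 ratio of Snhg6 was 1.31 (1.00 to 1.63). In the clusters led by Mylpf, a myosin light chain gene of fast fibres (205 and 89 cells), it was 1.21 (0.78 to 1.66). The intervals of these 2 values overlapped widely. For Gas5 and Zfas1 the values lay farther apart: in the Pax7-led clusters their log2 ratios were 0.08 (-0.02 to 0.19) and 0.08 (-0.15 to 0.31), and in the Mylpf-led clusters 0.43 (0.28 to 0.59) and 0.77 (0.40 to 1.15). Behind these values, Gas5 went from 630 to 667 CPM in the Pax7-led clusters and from 589 to 795 CPM in the Mylpf-led ones. The 311 E15.5 cells of the Pax7-led group came from 2 clusters that differed. In 1 of them (159 cells) Gas5 was at 756 and Zfas1 at 174 CPM. In the other (152 cells, with the cell cycle genes Ccne1, Hist1h3c and Hist1h1a among its 10 leading genes) they were at 598 and 121 CPM. The E12.5 cluster lay between, at 630 and 137 CPM, with intervals that overlapped those of the cycling cluster. Epb41l4aos was within counting error in both, at 0.06 and 0.08.

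In the connective tissue class all 8 host genes were higher at E15.5 by more than counting error, and 3 of them by at least 2-fold. Snhg6, which is among these 3 and by which the set was chosen, had 44.9 CPM (42.0 to 48.0) and 151 CPM (145 to 156). Its log2 ratio was 1.74 (1.63 to 1.86). Snhg12 followed with 38.9 and 94.9 CPM, a log2 ratio of 1.29 (1.16 to 1.41). Snhg8 had 84.6 and 196 CPM, a log2 ratio of 1.21 (1.13 to 1.30). At least 2-fold higher were 7.68% of the 9021 genes tested in this class, and at least 2-fold lower 17.8%, with none of the 8 on that side. The median log2 ratio was 0.72 over the 8 host genes and -0.33 over all genes tested. The class was made of differently led clusters at the 2 ages (Aldh1a2, Gdf5 or Calb2 among the leading genes of the larger E12.5 clusters, Aldh1a3, Fst or Mfap5 at E15.5), and the summed host level of its E15.5 clusters ran from 1232 to 2517 CPM.

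The other 5 host genes lay close together in connective tissue. Epb41l4aos had 40.3 and 67.7 CPM (log2 ratio 0.75, 0.62 to 0.88), and Snhg3 had 32.8 and 52.7 CPM (0.69, 0.54 to 0.83). Gas5 had 590 and 942 CPM (0.68, 0.64 to 0.71), Zfas1 had 83.0 and 126 CPM (0.61, 0.51 to 0.70), and Snhg1 had 147 and 221 CPM (0.59, 0.52 to 0.66). The intervals of all 5 shared the range from 0.64 to 0.66 and lay below those of Snhg8, Snhg12 and Snhg6. Relative to the median gene 6 of the 8 were at least 2-fold higher, against 12.9% of all genes tested. When the clusters led by histone genes or Cenpf, which mark cells in S phase and mitosis, were left out (5533 and 1363 cells remained), Snhg6 had a log2 ratio of 1.78 and Gas5 of 0.67. Both values lay within the counting intervals of the whole class.

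**Figure D1:**
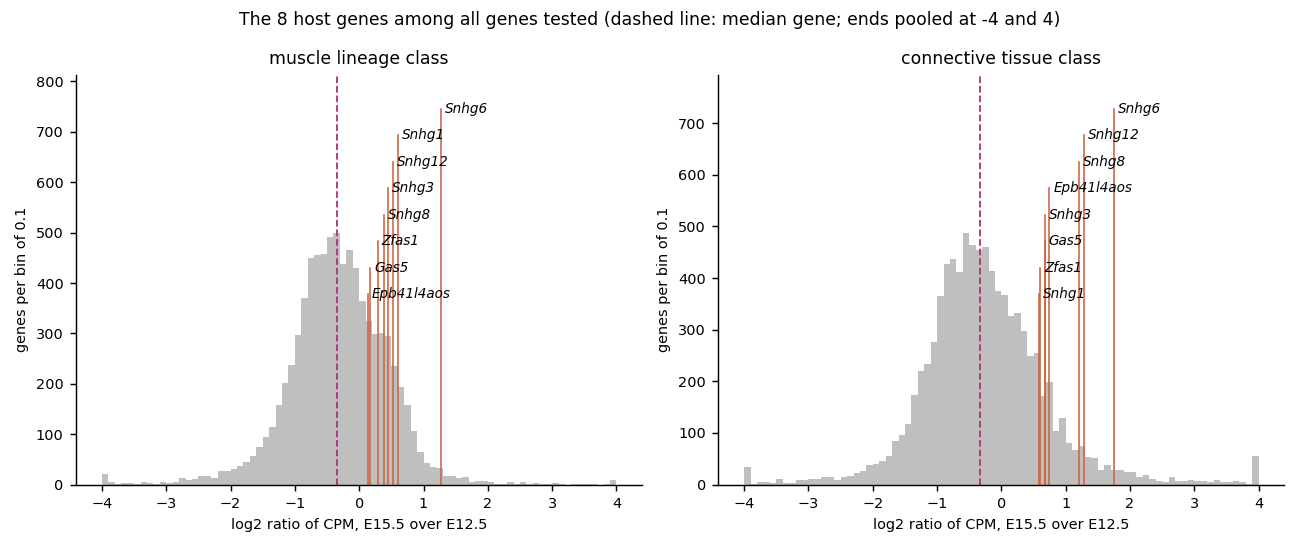
Histograms of the log2 ratio of CPM (E15.5 over E12.5, horizontal axis) of all genes tested in the muscle lineage and connective tissue classes, with the number of genes per bin of 0.1 on the vertical axis. Orange lines mark the 8 host genes and the dashed line the median gene (-0.34 and -0.33): all 8 lie to its right, with Snhg6 farthest out at 1.27 and 1.74.

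Chondrocytes shared the pattern in part. All 8 log2 ratios were above 0, from 0.28 (-0.02 to 0.58) in Epb41l4aos to 0.99 (0.70 to 1.28) in Snhg12, and the median was 0.69. Snhg12 had 43.2 and 85.6 CPM, Snhg8 had 94.2 and 184 CPM, and Snhg6 had 73.9 and 134 CPM, with log2 ratios of 0.99, 0.97 and 0.86. No host gene reached 2-fold, against 6.93% of all genes tested in this class at least 2-fold higher and 12.4% at least 2-fold lower. This count of 0 depended on the cells and clusters taken. It was 3 in cells of 2000 to 8000 UMIs (Snhg8 1.12, Snhg12 1.22, Zfas1 1.07) and 3 with coarser clusters (resolution 0.5). Of all genes tested 8.22% and 7.87% were at least 2-fold higher under these settings. The count was 2 in male cells and in female cells, against 9.68% and 7.38% of all genes tested. The 7 tested genes of the response to dissociation were all at least 2-fold higher in this class too, with a summed level of 1541 and 5318 CPM, and their part in the host gene ratios was not tested. Snhg6 did not lead here: it had its highest E12.5 level of all classes in chondrocytes, and 2 host genes had a ratio at least as high. With the median gene set to 0, 4 of the 8 were at least 2-fold higher, against 10.7% of all genes tested. Most chondrocytes at E15.5 (373 of 531) were in a cluster led by Mia, Sox9 and Matn4, genes that led no E12.5 cluster. In the clusters led by the cartilage matrix genes Col11a2, Acan or Col2a1 (1244 and 158 cells) the log2 ratios were 0.74 for Snhg6, 0.87 for Snhg8, 0.67 for Snhg12, 0.28 for Gas5 and -0.05 (-0.48 to 0.36) for Epb41l4aos. Of these 158 E15.5 cells 115 were in a cluster with the cell cycle genes Nusap1, Esco2 and Top2a among its 10 leading genes. Gas5 was at 764 CPM there and at 1141 CPM (1037 to 1252) in the other 43 cells, against 704 CPM at E12.5. The summed host level was 1487 and 1982 CPM. Snhg8 (178 and 152 CPM), Snhg12 (71.3 and 59.4) and Epb41l4aos (50.7 and 23.2) were lower in the 43 cells. For each of these 3 genes the intervals of the 2 clusters overlapped.

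In endothelial cells all 8 host genes were higher at E15.5. Their summed level in the E12.5 cells was 666 CPM (604 to 733), the lowest of the E12.5 clusters with at least 50 cells, against 1224 CPM (1177 to 1272) in the E15.5 cells. Epb41l4aos went from 23.9 to 61.8 CPM (log2 ratio 1.37, 0.60 to 2.25), Snhg6 from 49.4 to 127 CPM (1.37, 0.83 to 1.95) and Snhg3 from 20.7 to 45.2 CPM (1.13, 0.28 to 2.09). These 3 were at least 2-fold higher, against 5.4% of all genes tested, and none of the 8 was at least 2-fold lower, against 13.3%. Gas5 went from 312 to 539 CPM (0.79, 0.57 to 1.02). Snhg12 rested on 14 and 82 UMIs, and its interval reached -0.02. The interval of Snhg6 overlapped those of all 7 other host genes in this class. In cells of 2000 to 8000 UMIs (104 and 31 cells) the log2 ratio of Snhg6 was 0.23, a value from few cells for which no counting interval is given. Set against the median gene, 7 of the 8 were at least 2-fold higher, against 10.1% of all genes tested.

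Schwann cells were few at E12.5 (30 cells), and the cluster at E15.5 (94 cells) also had the melanocyte genes Dct and Pmel among its 10 leading genes. All 8 log2 ratios were above 0, and the interval lay above 0 for 1 of them, Snhg8, with 81.3 and 210 CPM and a log2 ratio of 1.37 (0.47 to 2.45). Snhg8 was also the 1 host gene at least 2-fold higher, against 13.5% of all genes tested, and none of the 8 was at least 2-fold lower, against 21.2%. Relative to the median gene 2 of the 8 were at least 2-fold higher, against 18.6% of all genes tested. A difference in Snhg6 was not detectable at this depth: it had 6 and 88 UMIs and a log2 ratio of 0.77 (-0.41 to 2.25).

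Immune cells gave other values. The summed level of the 8 host genes was 677 CPM (573 to 794) in the 46 E12.5 cells and 681 CPM (629 to 736) in the 89 E15.5 cells. Snhg1 had 121 and 87.8 CPM (log2 ratio -0.46, -1.11 to 0.22), Zfas1 had 76.2 and 61.8 CPM (-0.30, -1.10 to 0.57) and Gas5 had 332 and 324 CPM (-0.03, -0.40 to 0.35). Relative to the median gene of the class Gas5 was on the other side of 0, at 0.25. Snhg6 had 31.4 and 34.7 CPM (0.15, -1.06 to 1.57), from 7 and 32 UMIs. All 8 intervals included 0, and the 1 host gene at least 2-fold higher, Snhg12, rested on 2 and 22 UMIs. Of all genes tested 9.03% were at least 2-fold higher, and at least 2-fold lower were 21.3% and none of the 8. Relative to the median gene 2 of the 8 were at least 2-fold higher, against 14.2% of all genes tested. The interval of the Gas5 ratio (-0.40 to 0.35) ended below those of connective tissue (0.64 to 0.71), chondrocytes (0.55 to 0.70) and endothelial cells (0.57 to 1.02). It overlapped those of muscle (0.09 to 0.26), Schwann cells (-0.19 to 0.56) and the chondrocyte clusters led by cartilage matrix genes (0.18 to 0.37), and the difference between classes was not tested. Most E15.5 cells of those chondrocyte clusters were in the cluster with cell cycle genes, where Gas5 was lower. Of the 89 E15.5 immune cells 46 came from a cluster led by the neutrophil genes S100a9 and S100a8. In the clusters with C1qb among the leading genes (46 and 43 cells) Gas5 had a log2 ratio of -0.20 (-0.60 to 0.21) and Snhg6 of 0.27 (-0.99 to 1.73).

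**Figure D2:**
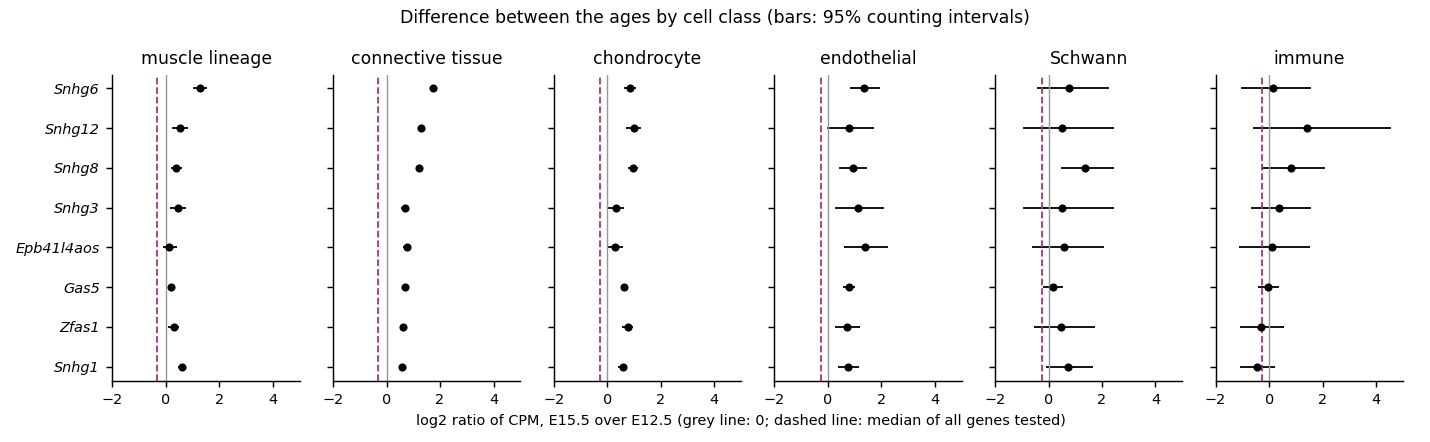
Log2 ratio of CPM (E15.5 over E12.5, horizontal axis) of each host gene in the 6 cell classes with at least 20 cells at both ages, with points for the ratios, bars for 95% counting intervals, a grey line at 0 and a dashed line at the median gene of the class. The points lie right of 0 in 5 of the 6 classes, while the immune points spread around 0 with wide bars.

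The levels themselves followed the cell class as well as the age. Each UMI stands for 1 captured RNA molecule whatever its length, so CPM values of different genes can be set side by side without scaling to length, apart from differences in capture. Gas5 was the most abundant host RNA in every class at both ages, and made up 48.4% of the summed host UMIs in the E12.5 muscle cells and 42.1% in the E15.5 ones, and 55.6% and 50.9% in connective tissue. Snhg6 went from 4.92% to 9.17% of the summed host UMIs in muscle and from 4.23% to 8.13% in connective tissue. The summed level was 1271 CPM (1226 to 1316) and 1648 CPM (1616 to 1680) in muscle, and 1062 CPM (1047 to 1076) and 1851 CPM (1831 to 1872) in connective tissue. Of the pair, muscle had the higher level at the earlier age and connective tissue at the later one, and at neither age did the intervals overlap.

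For Gas5 the classes kept a similar order at both ages. At E12.5 it was highest in chondrocytes at 704 CPM (676 to 734), followed by muscle, connective tissue and Schwann cells at 545 to 615 CPM with overlapping intervals between neighbours, and then immune, endothelial and erythroid cells at 332, 312 and 217 CPM. At E15.5 it was again highest in chondrocytes at 1087 CPM (1055 to 1119), then connective tissue at 942 and tenocytes at 941 CPM, whose intervals overlapped. Epithelial, mural, muscle, mast and Schwann cells lay between 764 and 615 CPM with overlapping neighbours, and endothelial (539 CPM), erythroid (412 CPM) and immune cells (324 CPM) had the lowest levels.

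For Snhg6 the highest E15.5 levels lay near each other. Mural cells (153 CPM), muscle (151), connective tissue (151), tenocytes (149), chondrocytes (134) and endothelial cells (127) had intervals that overlapped from neighbour to neighbour. The interval of connective tissue (145 to 156) nonetheless lay above that of endothelial cells (113 to 144). Schwann cells (83.0 CPM) came next, with an interval below that of endothelial cells, then erythroid cells (79.2, from 16 cells and with an interval of 44.4 to 131 that overlapped that of endothelial cells), mast (71.6) and epithelial cells (70.3), with immune cells last at 34.7 CPM (23.7 to 49.0). At E12.5 the range was narrower, from 73.9 CPM (64.9 to 83.8) in chondrocytes to 24.2 CPM in erythroid cells, and each class overlapped its neighbour. Connective tissue was among the lower classes then, at 44.9 CPM, with an interval that ended below those of chondrocytes and muscle. Snhg12 was highest in connective tissue at E15.5 (94.9 CPM) and lowest in mast (31.8 CPM) and immune cells (23.8 CPM).

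**Figure D3:**
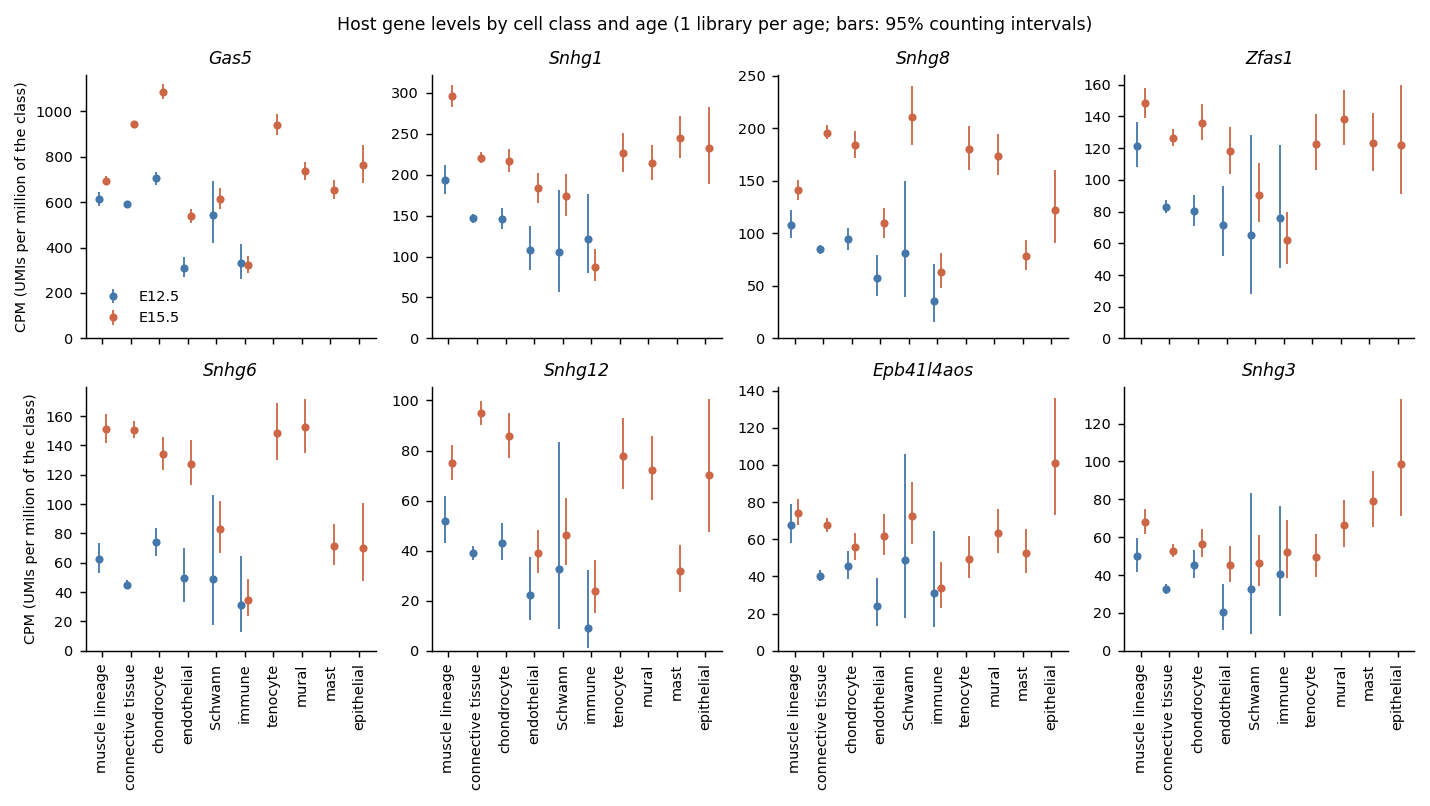
CPM (vertical axis, own scale and starting at 0 in each panel) of the 8 host genes in 10 cell classes, with blue points for E12.5, orange points for E15.5 and bars for 95% counting intervals. Orange points lie above blue ones for every gene in muscle, connective tissue, chondrocytes, endothelial cells and Schwann cells. The bars of both ages overlap for every gene in immune cells and for all but Snhg8 in Schwann cells. They also overlap for Epb41l4aos in muscle, Snhg3 and Epb41l4aos in chondrocytes and Snhg12 in endothelial cells.

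Across the clusters of each library most host genes, but not all, had similar profiles. Over the 18 clusters of at least 50 cells at E12.5 the Pearson correlation of log2(CPM + 10) was above 0 for all 28 pairs of host genes, with a median of 0.57 and a range of 0.09 to 0.80. Over the 19 such clusters at E15.5 it was again above 0 for all 28, with a median of 0.67 and a range of 0.09 to 0.86. Snhg6 stood out at E12.5, with correlations of 0.09 to 0.41 with the other 7. Snhg3 did at E15.5, with 0.50 for Snhg1 and 0.09 to 0.32 for the other 6. The clusters share a library and a sequencing run and differ in depth and composition, so these values are a description only. The summed level ran from 666 CPM in the endothelial cluster to 1368 CPM (1311 to 1428) in the Pax7-led muscle cluster at E12.5. At E15.5 it ran from 643 CPM (543 to 757) to 2517 CPM (2460 to 2574) in a connective tissue cluster led by Fst and Pappa.

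The lowest cluster at E15.5 stood apart in other ways. Its 72 cells had no class name, were led by Gm26917, had a median of 2956 UMIs and drew 2.66% of their UMIs from ribosomal protein genes and 6.76% from mitochondrial genes. Snhg6 was at 22.0 CPM there, against a median of 137 CPM over the 19 clusters. Cycling connective tissue clusters were also low: the cluster led by Cenpf had 924 CPM at E12.5, and the one led by Nusap1 and Hmmr had 1381 CPM at E15.5, below 4 and above 1 of the other connective tissue clusters of its age. Across clusters the summed level had a Pearson correlation with the ribosomal share of UMIs of 0.40 in the E12.5 library and 0.61 in the E15.5 one, with the mitochondrial share of -0.07 and -0.67, and with the median UMIs per cell of -0.32 and 0.03. The E15.5 correlations, here and between the host genes, include the unnamed cluster of 72 cells and were not computed without it. Its ribosomal share of 2.66% lay far below the 17.0% to 29.4% of the other E15.5 clusters of at least 50 cells. Its mitochondrial share of 6.76% lay above their highest, 4.88%, so these 2 correlations at E15.5 may rest largely on this cluster. The part of these quantities in the host gene levels was not tested.

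**Figure D4:**
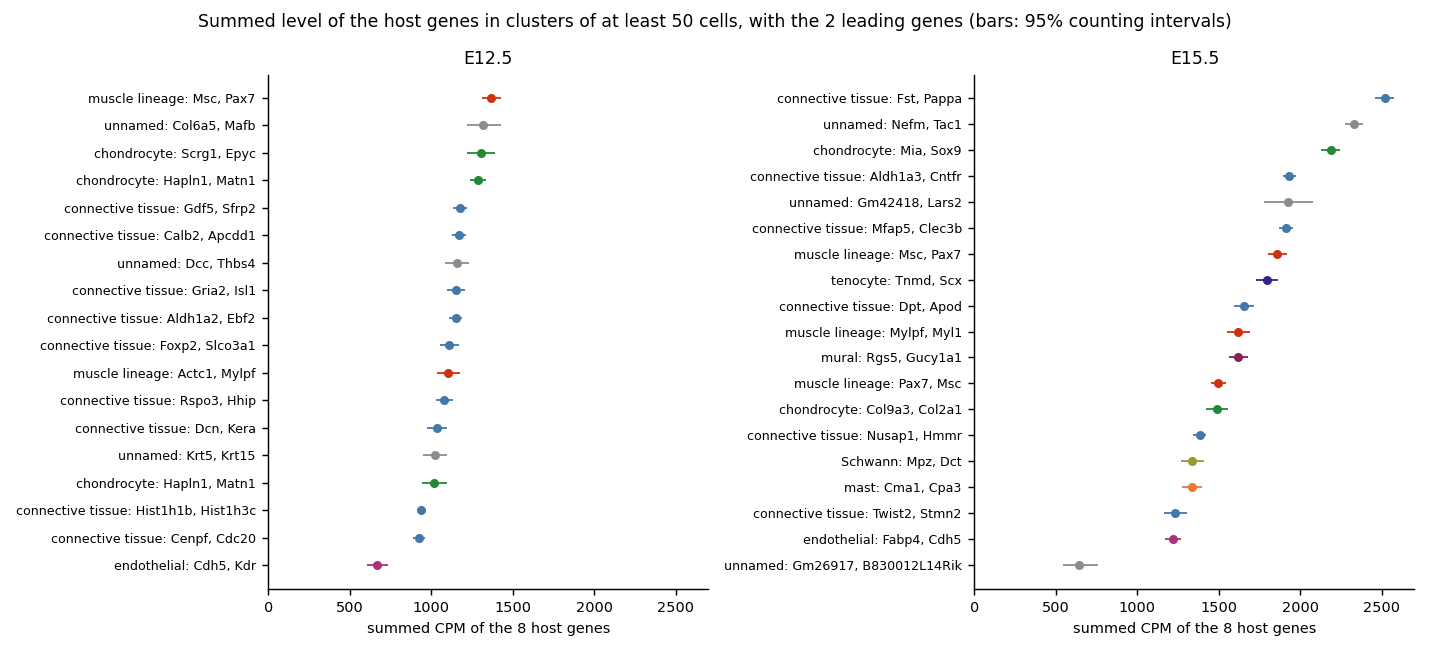
Summed CPM of the 8 host genes (horizontal axis) in every cluster of at least 50 cells, labelled with its class and 2 leading genes and ordered by level, at E12.5 (left) and E15.5 (right), with bars for 95% counting intervals. The E12.5 clusters lie between 666 and 1368 CPM and the E15.5 clusters between 643 and 2517 CPM, with the Fst-led connective tissue cluster on top.

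The genes whose cluster profile was most like that of the summed host genes were ranked by the lower of the 2 within-library correlations, among 8283 genes. First was Polr1c, a subunit of RNA polymerases I and III, with r = 0.77 over the 18 clusters at E12.5 and 0.76 over the 19 at E15.5. The ribosomal protein gene Rps26 (0.75 and 0.81) was second and Rps15a (0.71 and 0.79) sixth. Cluap1, Cox16, Gstm5, Cd3eap (a subunit of RNA polymerase I), Ube2b, Rab26os and Pebp1 completed the 10, with lower correlations of 0.74, 0.74, 0.72, 0.71, 0.70, 0.68 and 0.68. Ribosomal protein genes made up 17 of the 100 genes most like the host genes, and 83 of all 8283 ranked (1.00%). The 19 clusters at E15.5 include the unnamed one of 72 cells, which was low in both the host genes and ribosomal protein genes, and the ranking was not repeated without it.

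Shares of cells with a UMI were compared between cells brought to the same depth. Each cell was reduced at random to 2000 UMIs, without the cells that had fewer (53 of 598 and 7 of 400 in muscle, 2803 of 7761 and 3 of 1585 in connective tissue). At that depth 11.7% of the E12.5 muscle cells (9.16 to 14.7, exact binomial interval) had a UMI of Snhg6, and 26.2% (21.9 to 30.9) of the E15.5 ones. In connective tissue the shares were 9.10% (8.31 to 9.93) and 25.2% (23.0 to 27.4). For Gas5 they were 68.4% and 74.0% in muscle and 66.8% and 81.5% in connective tissue, and the 2 intervals of muscle overlapped. In connective tissue the intervals of the 2 ages were apart for all 8 host genes. In muscle they were apart for Snhg6 and for Snhg1 (31.2% and 40.7%) and overlapped for the other 6, among them Zfas1 (23.1% and 24.4%) and Epb41l4aos (15.8% and 14.5%). A UMI of any of the 8 genes was found in 91.4% and 94.7% of muscle cells, in 85.1% and 95.9% of connective tissue cells, and in 73.3% and 61.2% of immune cells. Without thinning the Snhg6 shares were 20.7% and 82.5% in muscle and 10.5% and 73.0% in connective tissue, with median depths of 3729 and 14272 UMIs and of 2314 and 10003 UMIs. Host RNAs are made by most cell types, so no class could serve as a negative control for free RNA; the lowest thinned share of Snhg6 was that of Schwann cells at E12.5 (1 of 27 cells, 3.70%), and immune cells had 4.44% and 4.48%.

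Other genes of the pathway were set beside the host genes as fixed lists. Of 13 other non-coding snoRNA hosts in the matrices, 11 were tested in muscle and 12 in connective tissue, with median log2 ratios of 0.27 and 0.30. In muscle Snhg20 (4.49 and 19.0 CPM, log2 ratio 2.08) and Snhg18 (13.9 and 33.2 CPM, 1.26) were at least 2-fold higher, against 2.94% of all genes tested. The E12.5 level of Snhg20 was low, and no counting interval is given for its ratio. In connective tissue Snhg15 (23.0 and 62.0 CPM, 1.43), Snhg18 (83.4 and 197 CPM, 1.24) and Snhg16 (1.13) were, against 7.68%. Snhg14, part of the imprinted Snrpn locus, was lower in both (-2.07 and -2.48), and the other lowest values were those of Rian in muscle (-0.66) and Snhg11 in connective tissue (-0.84). In these lists 6 of 11 non-coding hosts in muscle and 8 of 12 in connective tissue had a ratio above 0. The 13 protein-coding snoRNA hosts had medians of -0.04 in muscle and -0.08 in connective tissue, and none was 2-fold higher or lower. At least 2-fold lower were 15.2% of all genes tested in muscle and 17.8% in connective tissue. Tpt1 (0.55 and 0.95) and Rack1 (0.45 and 0.57) were highest, Nop56 (-0.40) and Ncl (-0.30) lowest in muscle, and Ncl (-0.76) and Dkc1 (-0.68) in connective tissue.

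Ribosomal protein genes were above 0 nearly throughout. Of 83 tested in muscle 81 had a ratio above 0, and of 84 tested in connective tissue 82 did, with medians of 0.57 and 0.72 against 0.42 and 0.72 for the 8 host genes. Rps2 (1.12 and 1.32), Rpl9 in muscle (0.95) and Rplp1 in connective tissue (1.29) were highest, and Rpl4 (-0.13 and -0.16) and Rpl7l1 in connective tissue (-0.41) were among the lowest. The 15 TOP mRNAs of other translation proteins had medians of 0.07 and 0.16. None was at least 2-fold higher, against 2.94% and 7.68% of all genes tested. Eef1d (0.67) and Eif3f (0.61) led in muscle, and Tpt1 (0.95) and Eif3f (0.78) in connective tissue, while Hnrnpa1 was lowest in both (-0.41 and -1.10), followed by Pabpc1 (-0.20) in muscle and Npm1 (-0.13) in connective tissue.

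Genes that act on snoRNAs or make ribosomal RNA had lower medians than the host genes. The snoRNP proteins, which bind mature snoRNAs or assemble them, had medians of -0.002 in muscle and -0.29 in connective tissue over 13 tested genes. The small subunits Nop10 (0.90 and 0.72) and Snu13 (0.80 and 0.77) were highest and the assembly factors Znhit6 (-0.84 in muscle), Naf1 (-0.87 in connective tissue) and Rrp9 (-0.74 and -0.80) lowest. Genes of ribosomal RNA synthesis and processing had medians of -0.34 over 13 genes and -0.64 over 12. In muscle Npm1 (0.05) and Bop1 (-0.11) were highest and Rrn3, an initiation factor of RNA polymerase I (-1.26), and Polr1b (-0.76) lowest. In connective tissue Polr1c (0.09) and Wdr12 (-0.12) were highest and Bop1 (-1.17) and Rrn3 (-0.95) lowest.

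Factors of nonsense-mediated decay, which breaks down several host RNAs, lay above the median gene in 2 of 12 cases in connective tissue and in 7 of 14 in muscle. Their median log2 ratio was -0.31 over 14 genes in muscle and -0.73 over 12 in connective tissue. In connective tissue none was above 0 and 4 were at least 2-fold lower, against 17.8% of all genes tested. In muscle 4 were above 0 and 1 was at least 2-fold lower, against 15.2%. Smg1, the kinase of the pathway, had 108 and 37.8 CPM in muscle (-1.51), and its log2 ratio in connective tissue was -1.39. Upf3b was lowest in connective tissue (75.0 and 23.6 CPM, -1.67). Smg9 (0.34) and Eif4a3 (0.24) were highest in muscle, and Magoh (-0.23) and Eif4a3 (-0.31) in connective tissue. Stress-response mRNAs that are themselves targets of this decay or carry upstream reading frames had medians of 0.60 over 6 tested genes in muscle and 0.70 over 5 in connective tissue. Gadd45b (1.05 and 1.25) and Atf3 (1.05 and 2.81) were highest, and Atf4 (0.08 and 0.24), Ddit3 in muscle (-0.48) and Asns in connective tissue (-0.81) lowest.

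Growth control genes had medians of -0.47 over 7 genes in muscle and -0.61 over 6 in connective tissue. Eif4ebp1, which restrains cap-dependent translation, had 88.6 and 166 CPM in muscle (0.90) and 27.9 and 83.3 CPM in connective tissue (1.58). Rptor (-1.04 and -1.27), Mycn in muscle (-1.34) and Mtor in connective tissue (-0.86) were lowest, and next after Eif4ebp1 came Larp1 (-0.26) and Myc (0.25). Of the protein-coding genes next to the host genes 5 were tested in each class. Of these, 2 had a ratio above 0 in each class, with medians of -0.15 and -0.31. Zbtb37, on the other strand of Gas5, had log2 ratios of -1.81 and -1.52, and Slc3a2, which lies next to Snhg1, of -0.35 and 0.41. Rcc1, on the same strand as Snhg3, had 0.24 in muscle and -0.44 in connective tissue, and Trnau1ap had 0.54 and 0.08.

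Markers of handling and RNA quality differed between the libraries too. Of 7 tested genes of the response to dissociation, 6 had a ratio above 0 in muscle and 7 in connective tissue, with medians of 0.77 and 1.37. Their summed level went from 1477 to 1991 CPM in muscle and from 1943 to 4181 CPM in connective tissue. Fos (1.40 and 2.03), Ier2 in muscle (1.03) and Junb in connective tissue (2.14) were highest, and Egr1 (-0.27 and 0.38), Fosb in muscle (0.12) and Jun in connective tissue (0.50) lowest. The median of this list was 1.89 in chondrocytes, 1.35 in endothelial cells, 1.57 in Schwann cells (8 tested) and 1.09 in immune cells. Of 4 nuclear RNAs, Malat1 had log2 ratios of -0.44 and 0.01, Neat1 of -0.13 and 0.85, Meg3 of 0.16 and 1.10 and Kcnq1ot1 of -1.23 and -0.91 in muscle and connective tissue. The part of dissociation, RNA quality or ribosomal content in the host gene differences was not tested.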

How the data were processed

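Single-cell RNA of 2 libraries was analysed. Raw UMI counts per gene and barcode were deposited by the authors. Per the file headers the matrices come from Cell Ranger 4.0.0. The submitters' processing notes also name Seurat 4.3.0 and build mm10 (GRCm38). The annotation release, cell calling settings and use of intronic reads are not given in the sources used here. Cells with at least 500 genes and under 10% mitochondrial UMIs were kept, and the highest doublet scores (0.8% per 1000 barcodes) were removed. The doublet step took out 1270 and 190 cells. Cells with a UMI of Ddx3y, Eif2s3y, Uty or Kdm5d and none of Xist were called male, and those with the reverse female. Of the kept cells 1725 were called male and 5784 female at E12.5, and 698 and 2604 at E15.5, and the rest had no call. Each library was clustered alone (2000 variable genes without the host genes and lists, 30 components, 15 neighbours, Leiden resolution 1). Clusters were named from at least 3 marker genes, by a rule set after clusters of these data were seen, and 10.4% and 17.1% of cells stayed unnamed. UMIs were summed by class and expressed as CPM. CPM values have exact Poisson intervals, ratios exact conditional ones and shares Clopper-Pearson ones. PCR copies are removed by UMIs, and the intervals and any limit from few UMIs cover counting error only.

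The members and lists were chosen with earlier results of these data known. Named were the 8 members, the 2 highest and 2 lowest genes of each list in the muscle and connective tissue classes, and the 10 genes most like the members across clusters; Snhg16 and single clusters were added after their values were seen. Some genes that the rule names are not reported here. Rows with the same symbol were summed (32285 rows, 32245 symbols), and 32235 of the 32285 identifiers were found in GENCODE vM21. The scripts were tested on simulated data. Python 3.11.15, numpy 2.4.6, scipy 1.17.1, scikit-learn 1.9.0, igraph 0.11.9 and leidenalg 0.10.2 were used.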

Additional observations from a re-analysis of the deposited data

Results flagged for a closer look

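In 3 host genes the log2 ratio between the ages (E15.5 over E12.5) had opposite signs in the immune and connective tissue classes, each class being 1 sample per age. For Snhg1 it was -0.46 in immune cells against 0.59 in connective tissue, for Zfas1 -0.30 against 0.61, and for Gas5 -0.033 against 0.68. The difference between the classes was not tested. The immune values rested on 27 and 81 UMIs for Snhg1, 17 and 57 for Zfas1 and 74 and 299 for Gas5, and relative to the median gene of the class Gas5 was at 0.25.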

How the results depend on the processing

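The 13 alternatives to each ratio kept the sign of all 8 host genes in connective tissue and of 7 in muscle; Epb41l4aos was above 0 in 11 of 13, with -0.16 in cells of 2000 to 8000 UMIs and -0.06 in female cells. The setting relative to the median gene and the totals without ribosomal, mitochondrial and haemoglobin genes each raised all ratios of these classes by the same amount. They could not turn a ratio above 0 to below 0. In muscle, resolution 0.5 took the same 598 and 400 cells as the main setting. In connective tissue the Snhg6 ratio ranged from 1.69 to 2.07. In muscle it ranged from 0.65 (cells of 2000 to 8000 UMIs, of which 30 were from E15.5) to 1.62 (relative to the median gene). In that depth window Gas5 had 0.71, and without counting intervals the order of these 2 genes cannot be read. The number of host genes at least 2-fold higher in muscle was 1 (2.94% of all genes tested), with the share of all genes in brackets here and below. It became 0 in the cells of 2000 to 8000 UMIs (8.99%), 2 in male cells (4.87%) and 2 at a 1.5-fold threshold (9.58%). In connective tissue it was 3, and became 6 relative to the median gene, 5 in the cells of 2000 to 8000 UMIs, 2 in male cells and 8 at 1.5-fold. Apart from the lower thresholds, the cause was not tested. None was 2-fold lower under any of these. In the main setting 15.2% of all genes tested in muscle and 17.8% in connective tissue were at least 2-fold lower. In chondrocytes the count was 0 (6.93%). It became 4 relative to the median gene (10.7%), 3 in the cells of 2000 to 8000 UMIs (8.22%) and 3 at resolution 0.5 (7.87%). With at least 1000 genes it was 2 (7.14%), and with totals that leave out ribosomal, mitochondrial and haemoglobin genes 2 (9.01%). In male and in female cells it was 2 (9.68% and 7.38%), and at 1.5-fold 5 (14.2%). In endothelial cells it was 3 (5.40%), and ranged from 1 of 5 tested at a mean CPM of at least 50 (4.17%) to 8 at 1.5-fold (13.7%). In chondrocytes Epb41l4aos reached -0.49 in male cells, and in immune cells Zfas1 ranged from -0.99 to 0.50 and Snhg1 from -0.91 to -0.13. The comparisons within clusters were added after seeing the data. Not run for want of 20 cells at an age were male cells and the depth window in immune cells, and male, female and all deposited cells in Schwann cells. No paired analysis was possible because each age had 1 library. Depth limited the Schwann and immune classes, where most host genes had under 30 UMIs at E12.5.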
